A study of Mus musculus with 6 samples.

Results

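Cholesterol genes were compared between cortex with stabilised β-catenin and control cortex of 14-day-old mice. The 33 genes were taken by name, for their function, from the 47794 genes of the deposited table. They comprised 19 enzymes of synthesis, 5 genes that sense sterols and control the pathway, and 9 genes of transport and turnover. Every one of the 33 had a row and was among the 30152 genes tested by the authors. The study sequenced RNA of primary somatosensory cortex from C57BL/6 mice at P14, in 3 libraries per group. Control mice had the genotype β-cat lox(ex3), and overexpression mice the genotype β-cat lox(ex3);Nex-Cre, so both groups carried the floxed allele and only the latter carried Cre. Loss of exon 3 leaves a β-catenin that escapes degradation, and Nex-Cre acts from the Neurod6 locus in excitatory neurons of the forebrain, not in glia. The labels number the replicates without saying that each was a separate animal. The p-values therefore measure only how these samples vary, and some of that may be technical. Counts per gene do not show whether exon 3 was removed.

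Neurons and glia of the brain make their own cholesterol, because lipoproteins of the blood do not pass the blood-brain barrier. Acetyl-CoA is built up through mevalonate to farnesyl pyrophosphate, joined to squalene, closed to lanosterol and trimmed to cholesterol. When sterols in the endoplasmic reticulum are low, SCAP carries SREBP proteins to the Golgi, where they are cut and go on to activate the synthesis genes. When sterols are high, INSIG proteins hold SCAP back. Astrocytes ship cholesterol to neurons on apolipoprotein E, oligodendrocytes need large amounts for myelin at this age, and neurons dispose of it by 24-hydroxylation. In bulk tissue fewer cells of a type and less RNA per cell cannot be told apart.

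Each gene had 1 deposited value per group, a mean of scaled read counts, and these means summed to 19016749 in control and 18602579 in overexpression cortex. Because the means were printed to 10 digits, the whole reads of the 3 libraries behind a mean could be worked out for most means up to 1000, though 9.89% of overexpression means matched several combinations. The libraries are named A, B and C within each group, from the deepest to the shallowest, and could not be tied to replicate numbers. Library A of each group alone could account for the reads of the Y-linked genes Eif2s3y and Kdm5d, and control A for those of Ddx3y. The overexpression mean of Ddx3y and both means of Uty, also Y-linked, equalled whole reads of no single library. The control mean of Eif2s3y equalled 1155 reads of control A alone, and the overexpression mean equalled 1799 reads of overexpression A alone. The sum of 5 choroid plexus markers was 827 in control B, against 177 and 127 in the other control libraries. It was 193 to 218 in overexpression libraries. Most of the sum in control B was Ttr, at 713 there against 76.4 in control A and 79.4 in control C. The excitatory neuron markers of cortex were present, with Camk2a at 66769 in control and 63088 in overexpression cortex. Neurod6, whose locus carries the Cre, was at 1942 and 1199, with an unadjusted p of 5.04e-05 in the authors' deposited table, where no gene passed the adjusted threshold.

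None of the 33 cholesterol genes differed between the groups by the authors' test. The adjusted p of the authors' deposited table was under 0.05 for 0 of 33, and for 0% of all genes tested. Its unadjusted p was under 0.05 for 0 of 33 as well, against 0.534% of all genes in the authors' deposited table, a share so low that the count says little about these genes. The smallest unadjusted p among the 33 was 0.255, for Lss, in the authors' deposited table. Group means were lower in overexpression cortex for 22 genes and higher for 11, with a median log2 ratio of -0.024. That split followed the scaling. With each group divided by its total, 16 were lower and 17 higher, and centred on the median gene, 17 were lower and 16 higher. Over all 11645 genes with a mean of at least 100, 57.8% were lower and the median was -0.017.

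The sizes of the differences were small. Log2 ratios of the 33 genes ran from -0.16 for Insig2 to 0.19 for Fdps. Of the 32 genes with a mean of at least 100, only Insig2, Lss and Abca1 had group means 1.1-fold or more apart, a bound chosen after the values were seen, and 16.5% of all genes at that level were as far apart. The median absolute log2 ratio was 0.064 both for these 32 genes and for all genes at that level.

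**Figure D1:**
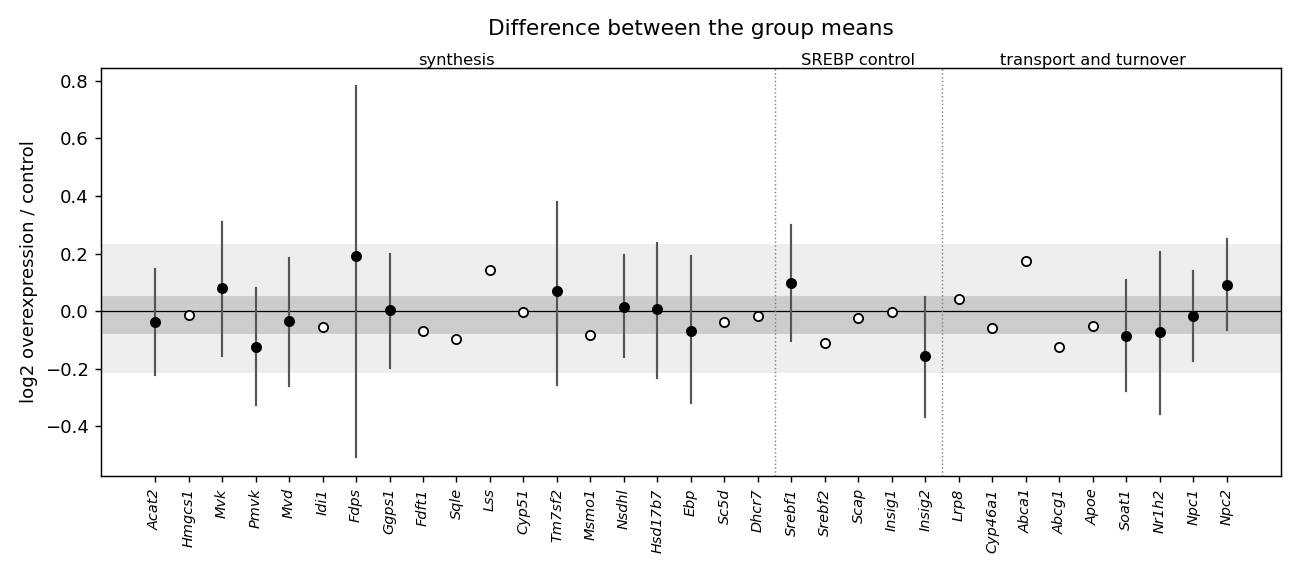
Log2 ratio of the overexpression to the control group mean for each of the 33 genes, in pathway order and by role. Filled points are the 16 genes with library values recovered in both groups, whose bars are 95% intervals from limma on log2 of the value plus 1, open points have no interval, and grey bands hold the middle 50% (dark) and 95% (light) of all genes with a mean of at least 100. All points lie between -0.16 and 0.19, and all 16 bars cross 0.

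Most synthesis genes with a promoter window held CCAAT and GC boxes, letters that the choice of genes did not use. RefSeq promoter windows of build GRCm38.p6 were found for 28 of the 33 genes, all but Fdps, Fdft1, Sqle, Abcg1 and Npc1, and the 250 bases before the start were searched on both strands. CCAAT, the box bound by NF-Y, a factor that works together with SREBP at many sterol-regulated promoters, was present before 15 of 16 synthesis genes, 4 of 5 control genes and 3 of 7 transport genes. Over all genes with a window the share was 37.5%. The GC box GGGCGG, bound by SP1, was present before 14 of 16 synthesis genes, 5 of 5 control genes and 3 of 7 transport genes, against 35.4% of all genes. The sterol regulatory element was searched only as TCACNCCAC, which was present before 1 of the 28, Hmgcs1, and before 1.23% of all genes. Other forms of the element and bases farther away were not searched, so a missing match does not show its absence. The E box CACGTG was present before 6 of the 28 and 6.86% of all genes. These are matches of letters, and a gene with several windows was counted if any of them matched. The 28 genes had 40 windows and all 27025 genes had 32851, so the 28 had more windows per gene. The shares over all genes were not matched for expression or base composition.

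Promoter windows of 5 genes are shown. That of Hmgcs1 was taken since it holds the match to TCACNCCAC. The others belong to the 2 genes with the largest positive log2 ratio and the 2 with the largest negative. These were chosen among genes with a window and a mean of at least 100. Each run is the 250 bases before the start, 5′ to 3′ on the gene's strand, with capitals for matches to CCAAT or TCACNCCAC on either strand. They lie at chr13:119690101-119690350 (plus strand) for Hmgcs1, chr4:53159896-53160145 (minus) for Abca1, chr10:76531355-76531604 (plus) for Lss, chr1:121332590-121332839 (minus) for Insig2 and chr3:89454291-89454540 (plus) for Pmvk. Insig2 has 3 windows and Pmvk 2, of which the one farthest upstream is shown. The CCAAT matches of Insig2 lie in the window shown and its GC boxes in the other windows, so none of its windows holds both.
Hmgcs1: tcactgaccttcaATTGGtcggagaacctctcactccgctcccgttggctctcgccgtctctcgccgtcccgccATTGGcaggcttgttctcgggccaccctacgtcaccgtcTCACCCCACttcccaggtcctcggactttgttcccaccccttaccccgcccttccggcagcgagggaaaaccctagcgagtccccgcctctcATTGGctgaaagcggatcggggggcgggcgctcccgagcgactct
Abca1: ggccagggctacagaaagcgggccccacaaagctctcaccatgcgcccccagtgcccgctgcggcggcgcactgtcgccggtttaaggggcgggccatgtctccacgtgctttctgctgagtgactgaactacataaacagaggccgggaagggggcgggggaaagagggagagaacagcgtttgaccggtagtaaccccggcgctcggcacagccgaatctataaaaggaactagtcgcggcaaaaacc
Lss: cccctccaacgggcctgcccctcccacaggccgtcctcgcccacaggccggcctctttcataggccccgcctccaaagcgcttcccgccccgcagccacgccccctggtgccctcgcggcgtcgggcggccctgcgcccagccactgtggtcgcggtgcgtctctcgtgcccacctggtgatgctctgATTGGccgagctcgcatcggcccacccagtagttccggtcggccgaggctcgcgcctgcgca
Insig2: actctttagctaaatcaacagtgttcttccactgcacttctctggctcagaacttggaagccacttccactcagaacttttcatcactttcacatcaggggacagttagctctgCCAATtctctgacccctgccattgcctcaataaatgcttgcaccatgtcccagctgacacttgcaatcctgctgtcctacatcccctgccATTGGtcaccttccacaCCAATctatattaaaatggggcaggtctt
Pmvk: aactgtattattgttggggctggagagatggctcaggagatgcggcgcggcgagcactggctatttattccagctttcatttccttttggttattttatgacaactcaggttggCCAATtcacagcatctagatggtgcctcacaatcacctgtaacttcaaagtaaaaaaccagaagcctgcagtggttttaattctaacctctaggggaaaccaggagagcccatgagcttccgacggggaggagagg
The Hmgcs1 window, with the TCACNCCAC match 129 to 137 bases before the start, also holds 3 CCAAT boxes. The group means of Hmgcs1 were within 0.83% of each other. Abca1 holds no CCAAT box, 2 GC boxes and an E box, and had the largest positive ratio of the 5. Lss and Pmvk hold 1 CCAAT box each and had log2 ratios of opposite sign. Whether a match has a part in these levels was not tested.

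Per kilobase of exon, the synthesis genes spanned a wide range of levels that was nearly the same in both groups. Hmgcs1, which makes HMG-CoA from acetoacetyl-CoA and acetyl-CoA, stood highest among the enzymes, with 2390 scaled reads per kilobase in control and 2370 in overexpression cortex. The next were Cyp51, the lanosterol demethylase, at 439 in both groups, and Idi1, the isopentenyl pyrophosphate isomerase, at 421 and 406 per kilobase. At the low end of the enzymes other than Fdps were Lss, Tm7sf2 and Hsd17b7, at 85.6, 96.4 and 106 per kilobase in control cortex. Over all 33 genes Apoe ranked first, at 9613 and 9273 per kilobase, followed in both groups by Hmgcs1 and then by Cyp46a1, at 1247 and 1197. Exon lengths merged all exons of GENCODE M21, which may not be the authors' annotation, and a merged length is at least that of any single transcript of the gene.

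**Figure D2:**
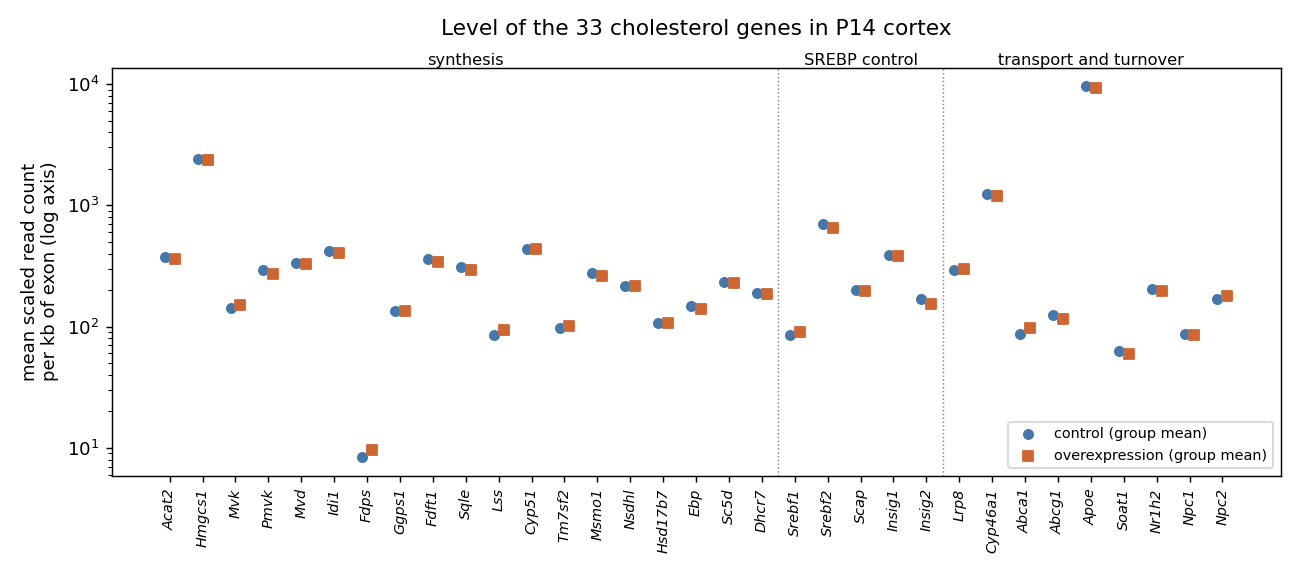
Group mean scaled read count per kilobase of exon, on a log axis, for the 33 genes in pathway order, with control as circles and overexpression as squares. The first 10 places are held by the same genes in the same order in both groups, from Apoe at 9613 per kilobase in control cortex to Mvd at 333, and Fdps lies lowest at 8.4.

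Fdps, the farnesyl pyrophosphate synthase that stands at the branch to sterols and prenyl groups, had a value far under its neighbours. It was at 35.4 scaled reads in control and 40.3 in overexpression cortex, or 8.4 and 9.58 per kilobase, while Idi1 before it and Fdft1 after it were at 421 and 360 per kilobase in control cortex. Of the 50-base words of its annotated transcripts, 26.2% also occur in transcripts of other genes, chiefly Gm43738, Gm3571 and Gm5873. Gm43738 covers 26.7% of its exon length on the same strand and was at 1.77 in control and 3.53 in overexpression cortex, Gm5873 was at 0.339 and 0.314, and Gm3571 was listed at 0 in both. Why the Fdps value is low was not tested, and it is uncertain as a measure of the gene. At least 10% of such words were shared for 4 further genes, Acat2, Idi1, Fdft1 and Hmgcs1. The highest share was 39.1% for Acat2, with Acat3, which was at 30.5 and 29.4, and with Tcp1, at 2182 and 2059. The strand setting of the counting is not given in the sources used here, and exons of 9 of the 33 genes are overlapped on the opposite strand, by at most 18.3% of their length (Fdft1, by Ctsb, which was at 8286 and 7942).

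No gene of the mevalonate steps differed beyond the spread between libraries, where that spread was known. Of 6 genes, 5 had a lower and 1 a higher overexpression mean, and the median log2 ratio was -0.035. Acat2, which joins acetyl-CoA units, was at 883, 998 and 954 in control libraries A, B and C and at 848, 1009 and 905 in overexpression libraries A, B and C. Mvk, the mevalonate kinase, was at 383, 386 and 366 in the control libraries and at 350, 419 and 431 in those with overexpression. For these 2 genes, overexpression A gave the lowest of the 6 values and the groups overlapped. Pmvk, the phosphomevalonate kinase (ENSMUSG00000027952), was at 501, 473 and 536 in the control libraries and at 438, 485 and 463 in those with overexpression. It had the most negative ratio of all the enzymes, a log2 fold change of -0.12 by limma with a 95% interval from -0.33 to 0.08, and an adjusted p of 1 both by limma and in the authors' deposited table (unadjusted, 0.21 by limma and 0.361 there). The overexpression range of Pmvk reached from under the lowest control library to within the control range. Mvd, the decarboxylase, was at 610, 586 and 659 in the control libraries and at 525, 664 and 625 in those with overexpression, where library A again gave the lowest value. Hmgcs1 and Idi1, too abundant for recovery, had group means of 10979.9 and 1477 in control and 10888.8 and 1421 in overexpression cortex.

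The prenyl steps were recovered for both genes. Ggps1, which makes geranylgeranyl pyrophosphate for protein prenylation, was at 673, 629 and 612 in the control libraries and at 708, 602 and 608 in those with overexpression. Library A gave the highest value in both groups and the means differed by 0.272%. Fdps was at 27.5, 38.9 and 39.7 in the control libraries and at 40.7, 25.4 and 54.8 in those with overexpression. Its overexpression libraries spread more than 2-fold, and its 95% interval by limma ran from a 0.704-fold to a 1.72-fold value, the widest of the 16 genes.

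Among 11 enzymes from squalene onward, 7 had lower and 4 higher overexpression means, with a median log2 ratio of -0.016. The squalene-forming and squalene-oxidising enzymes Fdft1 and Sqle were at 1523 and 1724 in control and 1451 and 1611 in overexpression cortex. Lss (ENSMUSG00000033105), which closes the ring to lanosterol, was at 923 in control and 1019 in overexpression cortex, a log2 ratio of 0.14, and the authors' deposited table gave p = 0.255. Control libraries A, B and C were at 777, 1030 and 963. Control B thus reached above the overexpression mean, and control A lay well under the other control libraries. Cyp51, the next enzyme, had means of 1939 and 1937, the closest pair of all 33 genes.

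Of the enzymes that trim lanosterol to cholesterol after Cyp51, Tm7sf2, Nsdhl and Hsd17b7 had higher overexpression means, and Msmo1, Ebp, Sc5d and Dhcr7 had lower ones. Tm7sf2, a sterol reductase, was at 361, 435 and 476 in the control libraries and at 376, 546 and 416 in those with overexpression, with library A lowest in both groups. Nsdhl, a decarboxylating sterol dehydrogenase encoded on the X chromosome, was at 588, 598 and 646 in the control libraries and at 605, 627 and 622 in those with overexpression. Hsd17b7, the keto-reductase of the same complex, was at 507, 593 and 528 in the control libraries and at 585, 472 and 578 in those with overexpression. The groups overlapped for all 3 genes. Ebp, the sterol isomerase, also X-linked, was at 377, 296 and 345 in the control libraries and at 302, 340 and 328 in those with overexpression, all of which lay within the control range. Msmo1, the sterol methyl oxidase, was at 1704 in control and 1609 in overexpression cortex, a log2 ratio of -0.08. Sc5d, the desaturase, was at 1143 and 1113, and Dhcr7, the last reductase of its branch, at 1092 and 1080.

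The sterol-sensing genes gave 4 lower and 1 higher overexpression mean, with a median log2 ratio of -0.024. Insig2 (ENSMUSG00000003721), which holds SCAP in the endoplasmic reticulum, was at 627, 568 and 572 in the control libraries and at 587, 498 and 502 in those with overexpression. Library A was the highest in each group, and overexpression A lay inside the control range while B and C lay below it. By limma its log2 fold change was -0.16, with a 95% interval from -0.37 to 0.05, an unadjusted p of 0.127 and an adjusted p of 1. Without overexpression A the log2 fold change was -0.24, with an unadjusted p of 0.0429 and an adjusted p of 0.992 by limma. Of all 12463 genes with library values and a mean of at least 10, 2.3% had an unadjusted limma p under 0.05 without overexpression A. Without both A libraries, an alternative added after the data were seen, the unadjusted limma p of Insig2 was 0.136. Its relative Insig1, itself an SREBP target, was at 1193 in control and 1189 in overexpression cortex.

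The 2 SREBP genes had log2 ratios of opposite sign, and neither passed the test. Srebf2, which encodes the main activator of the cholesterol genes, was at 5048 in control and 4679 in overexpression cortex, with a log2 ratio of -0.11 and p = 0.323 in the authors' deposited table. Srebf1, whose products favour fatty acid genes, was at 500, 488 and 442 in the control libraries and at 487, 503 and 540 in those with overexpression. Its log2 fold change by limma was 0.10, with a 95% interval from -0.11 to 0.30 and an adjusted p of 1, and the groups overlapped. Scap was at 1478 and 1453.

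Genes of transport and turnover gave 6 lower and 3 higher overexpression means, with a median log2 ratio of -0.05. Apoe, the main lipoprotein of astrocytes, was at 20552 in control and 19825 in overexpression cortex. Its receptor Lrp8, which also takes up Reelin signals, was at 3054 and 3142. Cyp46a1, the neuronal 24-hydroxylase, was at 4100 and 3935. Each of these 3 genes, all marked by high counts, had group means within 4.03% of each other.

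The sterol exporters Abca1 and Abcg1, both targets of the liver X receptors, had log2 ratios of opposite sign. Abca1 (ENSMUSG00000015243) was at 893 in control and 1008 in overexpression cortex, a log2 ratio of 0.17, and the authors' deposited table gave p = 0.45. The 3 control libraries of Abca1 were at 876, 982 and 822. Abcg1 was at 914 and 838, a log2 ratio of -0.13 with p = 0.45 in the authors' deposited table, and its control libraries were at 1011, 888 and 844. The control libraries of each gene thus spread by more than the difference between its group means. Nr1h2, which encodes a liver X receptor, was at 788, 696 and 584 in the control libraries and at 592, 776 and 596 in those with overexpression, a wide spread in both groups with full overlap of the ranges.

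Npc2 was the single gene of the 16 whose libraries did not overlap between the groups. It encodes the lysosomal carrier that hands cholesterol to NPC1. Its overexpression mean matched several combinations of reads, and the values given are the closest combination, so the gap between the groups rests on that choice. It was at 935, 865 and 947 in the control libraries and at 964, 1014 and 949 in those with overexpression, so that the lowest overexpression library lay 0.162% above the highest control library. By limma the log2 fold change was 0.09 with a 95% interval from -0.07 to 0.25, an unadjusted p of 0.228 and an adjusted p of 1. Of all 12463 genes with library values and a mean of at least 10, 6.82% had groups that did not overlap, and 1 of 16 is close to that share. Its partner Npc1 was at 992, 1017 and 940 in the control libraries and at 961, 934 and 1020 in those with overexpression. Soat1, which esterifies cholesterol for storage, was at 598, 664 and 584 in the control libraries and at 612, 549 and 580 in those with overexpression. Both overlapped between the groups.

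**Figure D3:**
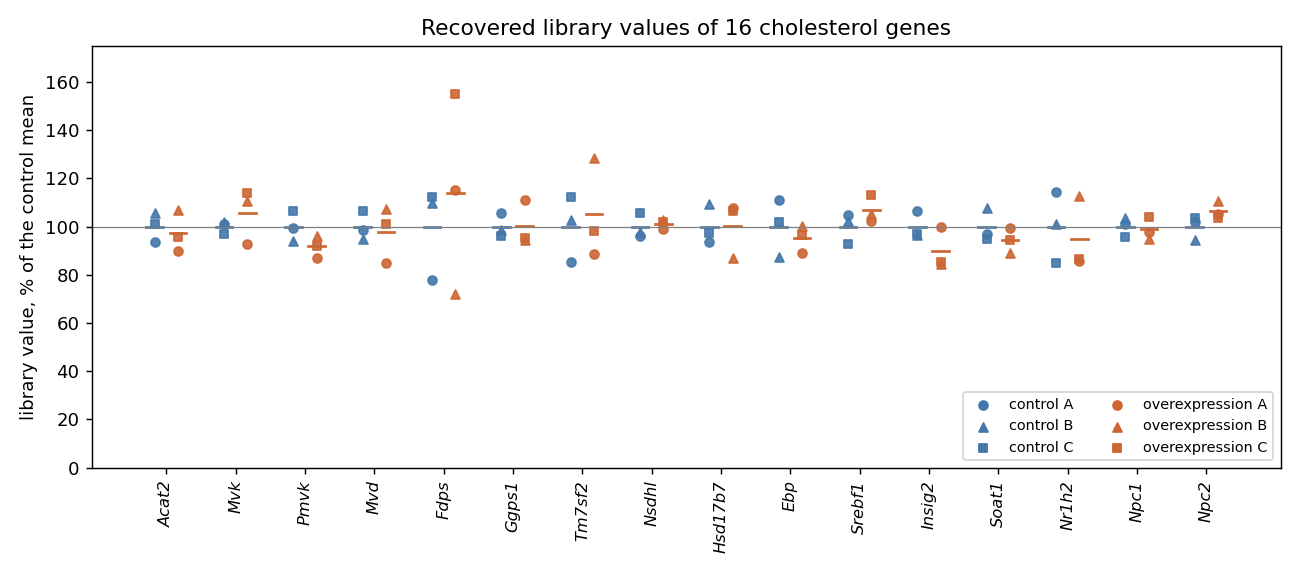
Recovered value of each library for 16 genes, as a percentage of the gene's control mean, with control libraries in blue, overexpression libraries in orange, a symbol per library and a bar for each group mean. Ranges of the groups overlap for 15 genes, Npc2 is separated by a narrow gap, and Fdps spreads most.

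The precision of these comparisons can be read from the 16 recovered genes. On the 8 genes with 1 matching combination in both groups, limma called 0 at an adjusted p under 0.05 (0% of 10379 genes) and 0 at an unadjusted p under 0.05 (2.04%). For the other 8 (Acat2, Ggps1, Nsdhl, Hsd17b7, Soat1, Nr1h2, Npc1 and Npc2) the overexpression mean matched several combinations of reads, and the one closest to the group mean was taken where all others lay at least 2 times as far. This favours values with little spread. With these included, 0 of 16 had an unadjusted limma p under 0.05, where the share over all genes was 1.96%, and 8 had positive and 8 negative fold changes. The 95% intervals reached 1.15-fold to either side in the median gene. Leaving out Fdps, they ran no lower than 0.776-fold and no higher than 1.3-fold, so larger changes lie outside the intervals of these 15 genes. No such bound can be given for the 17 genes without library values in both groups, the abundant Hmgcs1, Srebf2 and Apoe among them.

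Overexpression A gave low values for most of the recovered enzymes. Over 9 recovered enzymes with a mean of at least 100, overexpression A was the lowest library of its group for 7 (Acat2, Mvk, Pmvk, Mvd, Tm7sf2, Nsdhl and Ebp), while over all 7020 such genes it was the lowest for 30.8%. The other 2, Ggps1 and Hsd17b7, had their highest overexpression value there. Among all 6 libraries, overexpression A was the lowest for 4 of the 9 (Mvd, Acat2, Pmvk and Mvk), against 15.4% of all 7020 genes. For Acat2, Nsdhl, Ggps1 and Hsd17b7 the order of the overexpression libraries rests on closest combinations. The median log2 ratio to a gene's mean over 6 libraries was -0.14 for the 9 enzymes in overexpression A, against -0.0081 for all genes. In overexpression B it was 0.036, in C -0.014, and in control A, B and C -0.024, -0.023 and 0.059. Control A, the library to which the control reads of Eif2s3y were traced, was the lowest of its group for 4 of the 9. Over all 7020 genes it was the lowest for 33.9%, so the count for the enzymes is near that share. In overexpression A, B and C the recovered oligodendrocyte markers Ermn and Opalin summed to 928, 945 and 694, the 4 recovered microglia markers to 1494, 1586 and 1681, and the 3 recovered endothelial markers to 1674, 1835 and 1602. The microglia sum of overexpression A was the lowest of the 6 libraries, where control libraries gave 1567 to 1735. The part of these cells was not tested. The part of library A in the enzyme levels was noticed in these data and was not tested. Without both A libraries the 10 recovered enzymes, Fdps included, split into 5 positive and 5 negative fold changes, against 6 and 4 with all libraries.

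**Figure D4:**
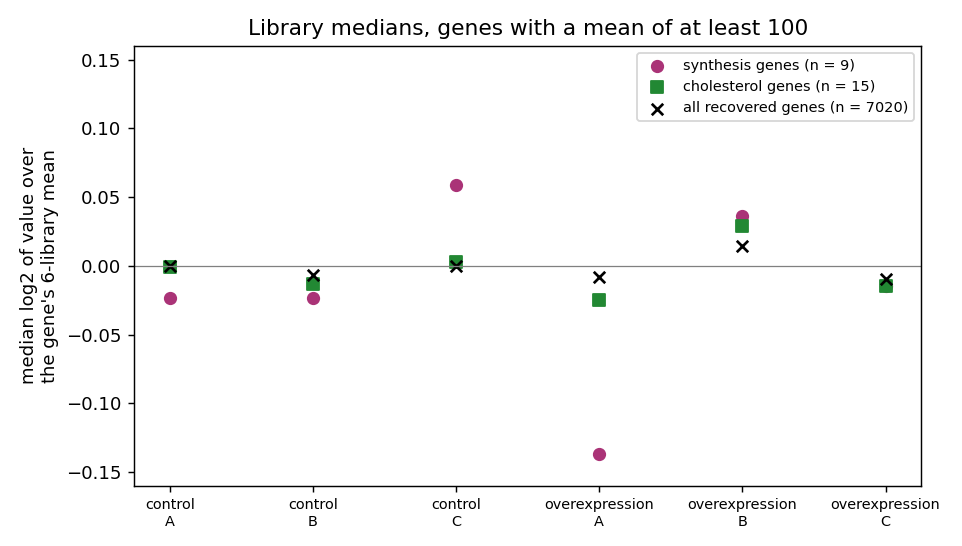
Median log2 ratio of the library value to the gene's mean over 6 libraries, for 9 synthesis genes, all 15 recovered cholesterol genes with a mean of at least 100, and all 7020 recovered genes at that level. The synthesis genes have their lowest median, -0.14, in overexpression A, while the medians of all genes stay between -0.0098 and 0.014.

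Further genes of sterol and lipid metabolism were counted in 6 lists. Of 77 genes 76 were measured, and the authors' deposited table gave none of them an unadjusted p below 0.05, beside 0.534% of all genes, a share at which such a count says little. Their median log2 ratio was -0.049, with 50 lower and 26 higher. Over all genes with a mean of at least 100, 57.8% were lower, with a median of -0.017. Division by the group totals would raise every log2 ratio by 0.032, and the splits of these lists were not recounted under that scaling. Of 14 genes of SREBP processing and sterol sensing 13 were lower and 1 higher, with a median of -0.07, and Pgrmc1 was at 3003 in control and 2870 in overexpression cortex. Of 13 fatty acid genes driven by SREBP-1, 9 were lower and 4 higher, with a median of -0.08. Scd2, the main brain desaturase, was at 23345 and 22081, and the fatty acid synthase Fasn at 8424.5 and 7521. Intracellular sterol handling gave 11 lower and 3 higher of 14, with a median of -0.054, and sterol carriers and receptors 8 lower and 6 higher of 14, with a median of -0.059. Precursor supply leaned the other way, with 8 higher and 5 lower of 13 and a median of 0.025, and the 8 measured genes of oxysterol metabolism split into 4 and 4.

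Markers of glia and of excitatory neurons were set beside these values. The 10 oligodendrocyte markers summed to 135256 in control and 145032 in overexpression cortex, with 8 higher and 2 lower and a median log2 ratio of 0.09. The 10 astrocyte markers summed to 128567 and 124466, with 4 higher and 6 lower and a median of -0.013. All 7 excitatory neuron markers, of the cells in which Nex-Cre acts, were lower in overexpression cortex, with a median of -0.058 and a sum of 145819 against 138862. Over all genes with a mean of at least 100, 57.8% were lower. The most negative of the 7 was Neurod6, at a log2 ratio of -0.70, and its locus carries the Cre. By the authors' deposited table none of the 20 glial markers and 1 of the 7 neuronal ones (Neurod6) had an unadjusted p under 0.05, where the share over all genes was 0.534%. Their part in the levels of the cholesterol genes was not tested.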

How the data were processed

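RNA-seq of P14 cortex, with 3 control and 3 overexpression libraries, was used as 1 deposited table. The submitters' processing notes list TopHat2 2.0.9 and Bowtie2 2.0.6, and for the counter, strand setting, genome build, annotation and test the entry is: not given in the sources used here. For each gene and group the authors deposited a mean signal of scaled read counts, and, per the file headers, a p-value with its adjusted form. Log2 ratios were recomputed from the group means, since the deposited column holds spreadsheet errors. Calls use the authors' adjusted p under 0.05.

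Values of single libraries were recovered from the 10 printed digits of each mean up to 1000, searching libraries within 2-fold of the mean above 500 in control and 100 in overexpression cortex. Exactly 1 combination of reads was found for 99.9% of 23575 control and 90% of 24203 overexpression means. Where several were found, the closest was taken if within 1.5-fold and all others lay 2 times as far, a step added after the data were seen. In overexpression cortex, 2 means that equalled whole reads of 1 library alone were given no such combination. For libraries A, B and C the scaling factors came to 0.982, 0.926 and 0.907 (control) and to 1.23, 1.06 and 0.966 (overexpression), larger for deeper libraries. Genes with a mean of at least 10 entered limma (version 3.58.1, R version 4.3.3), using log2 of the value plus 1, a mean-variance trend and Benjamini-Hochberg adjustment over all genes fitted. Recovery and limma were also run on simulated data, with the same spread beyond counting noise for all genes and changes of 2-fold only. The simulation thus does not cover genes with a wider spread or smaller changes.

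Every member is named, with library values where both groups were recovered and test values for the 2 members of each role with the largest difference at a mean of at least 100. Test values of Fdps, Srebf1 and Npc2 were added after their values were seen, as were Neurod6, Ermn and Opalin. Other genes are counted by list, with at most the 2 most abundant of a list named, apart from genes that touch a member's value. The members and lists were chosen with earlier results of these data known. Symbols came from a table of Ensembl IDs, and exon lengths and shared 50-base words from GENCODE M21.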

Additional observations from a re-analysis of the deposited data

How the results depend on the processing

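The number of called members was also 0 by the authors' unadjusted p and by limma with and without closest combinations. The median log2 ratio of the 33 members lay between -0.029 and 0.0073 under other pseudocounts, scalings, a minimum mean of 100 and the mean in place of the median, that of the synthesis members between -0.024 and 0.016, of the control members between -0.039 and 0.0073 and of the transport members between -0.052 and -0.012. Division by the group total gave 0.0073 for all members, a shift larger than the SD of library medians over the 16 recovered members (0.02). The mean in place of the median gave -0.012 for the transport members (SD 0.038 over the 4 recovered). The sign depended on the scaling for all but the transport members. The 6 members named by size kept their sign under each scaling and pseudocount. With 1 library left out, the number of recovered members with an unadjusted limma p under 0.05 ranged from 0 to 1, both with and without closest combinations, the 1 being Insig2 without overexpression A. The median limma log2 fold change over the 8 recovered members was 0.012 and ranged from -0.097 without overexpression B to 0.079 without overexpression A, beside an SD of library medians of 0.074. With closest combinations, over 16 members, it was -0.008 and ranged from -0.036 without overexpression C to 0.0049 without overexpression A. No paired analysis was possible because the recovered libraries carry no replicate number. For the 14 members without library values, and for the overexpression values of Lss, Abca1 and Abcg1, the spread between libraries is unknown.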
